A study of Danio rerio with 20 samples.

Results

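The 40 genes described here were the zebrafish nduf genes, most of which encode nuclear subunits and assembly factors of respiratory complex I. The exception is the ndufa4 family (ndufa4 and ndufa4l), whose product in mammals copurifies with complex IV, cytochrome c oxidase. They were all symbols in the deposited table that begin with nduf and that reached 1 CPM (counts scaled to a common library total) in at least 2 of the 20 libraries, 40 of 43 such symbols and of 14781 genes in all. The other members fell below that level: ndufa13 and ndufaf3 were listed at 0 in every library, and ndufs8b had 1 read in each of 2 libraries. RNA came from cardiomyocytes isolated from adult zebrafish hearts (age 4 to 6 months), either wild type or kita(w34b2);kitb(sa15356) double mutants, called kit mutants here (kita and kitb are the zebrafish paralogs of the receptor tyrosine kinase KIT). Ventricles were untouched, or were collected 2, 5, 7 or 14 days after about 20% of the apex was cut off (days post injury, dpi). Each of the 10 groups of genotype and time had 2 libraries, and each library pooled the cells of 8 ventricles. Fish of all groups were kept alike per the labels, which name no further allele or agent besides the anaesthetic tricaine, given to resected fish. The labels do not say whether the libraries of a group were separate preparations, so p-values measure the spread between libraries only.

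Complex I, or NADH dehydrogenase, takes electrons from NADH and passes them to ubiquinone, and uses the energy released to pump protons across the inner mitochondrial membrane. Its peripheral arm holds the flavin, the iron-sulfur clusters and the quinone site, its membrane arm holds the proton pumps, and assembly factors help to build it without staying in the finished enzyme. Adult heart muscle is rich in mitochondria and draws most of its ATP from this chain. The zebrafish heart regrows after resection through division of remaining cardiomyocytes. The proton-pumping core subunits are encoded in mitochondrial DNA and were not analysed here.

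Assigned reads per library ranged from 14.6 to 31.7 M, and the 40 genes had between 122 reads (ndufaf7) and 34655 reads (ndufa4) in a library. Untouched, 2 dpi and 7 dpi mutants had pairs of libraries that hardly differed. Their mean chi-square per gene (with a value of 1 for read sampling alone) was 2.51, 3.73 and 1.95, against 13.9 to 46.6 in the other 7 groups. These are called the near-identical pairs below, and counts are also given with each of them averaged to 1 library. Per the labels, lane 7 held the mutant libraries of 2 dpi alone and lane 8 the rest, so that lane cannot be told apart from that genotype and time. Some sample indices of lane 8 occur in both genotypes, so lane 8 may stand for more than 1 sequencing run. If the runs were split by genotype, run and genotype cannot be told apart at any time. Transcripts of kita had 6 to 29 reads per library and those of kitb 0 to 8 in both genotypes together, and reads per gene do not show the mutations. Of the cardiomyocyte markers, 9 of 10 were tested, and their summed level lay between 33126 and 80630 scaled CPM (CPM after division by the library's scaling factor). The summed level of 7 of 8 epicardial and fibroblast markers was 2000 and 2214 in untouched wild type and 5250 to 11121 at later times. In mutants it was 996 and 1038 untouched and 4957 to 9816 later. Tested macrophage markers (8 of 9) summed to 209 to 1619, endothelial ones (7 of 8) to 1932 to 4505 and erythrocyte ones (3 of 6) to 1321 to 7420. Neutrophil markers (6 of 7) summed to 720 and 721 in untouched mutants and to 19.5 to 104 elsewhere. No tested marker was at 0 in both libraries of a group. The 2 wild-type libraries of 2 dpi had the highest chi-square (46.6) and unlike marker sums. In replicates 1 and 2, erythrocyte markers summed to 6189 and 1321 and macrophage ones to 448 and 209. Cardiomyocyte markers summed to 36954 and 53632 there. Epicardial and fibroblast sums (8677 and 11121) and endothelial ones (1932 and 2141) were closer in proportion. All wild-type results at 2 dpi rest on this pair. The part of these other cell types in the results below was not tested.

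In wild type the summed level of the 40 genes fell after resection, was lowest at 7 dpi and was partly back at 14 dpi. In kit mutants it dropped deeper at 2 dpi, stood slightly above the untouched level at 5 dpi, and was lower again at 14 dpi. The sum was 12028 and 13690 scaled CPM in the wild-type untouched libraries, 6086 and 8403 at 2 dpi, 7352 and 8047 at 5 dpi, 6149 and 6737 at 7 dpi, and 9843 and 8378 at 14 dpi. Every injured wild-type library was thus below both untouched ones. In mutants the sum was 10475 and 10486 untouched, 3623 and 3575 at 2 dpi, 11767 and 10829 at 5 dpi, 8667 and 8825 at 7 dpi, and 7790 and 6496 at 14 dpi. The mutant 2 dpi pair was the lowest of the 20 libraries, and the 5 dpi pair was above both untouched mutant libraries. As a share of assigned reads, these genes took 1.16% ± 0.0678 in untouched wild type and 0.413% ± 0.00255 in mutants at 2 dpi (SD, n = 2). Sums and shares include ndufa4 and ndufa4l, the genes with the highest means over the 20 libraries (918 and 1116 scaled CPM). In mutants at 5 dpi the mean of ndufa4 was 1296 against 1017 untouched, and that of ndufa4l 1446 against 1442. Of the 40 genes, 1 was called higher and 1 lower there (limma, adjusted p under 0.05), against 26% and 25.3% of all genes tested.

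Cardiomyocyte markers were also lower at 2 dpi in both genotypes. Their sum was 75427 and 80630 scaled CPM in untouched wild type, 36954 and 53632 at 2 dpi, 49914 and 61913 at 5 dpi, 45640 and 47810 at 7 dpi, and 73259 and 62978 at 14 dpi. In mutants it was 73931 and 73243 untouched, 33126 and 33640 at 2 dpi, 76559 and 69995 at 5 dpi, 61159 and 62426 at 7 dpi, and 58951 and 47749 at 14 dpi. At 5 dpi the mutant marker sums overlapped the untouched ones, whereas the nduf sums were above them. Per 100 scaled CPM of these markers, nduf genes had 15.9 and 17.0 in untouched wild type, 16.5 and 15.7 at 2 dpi, 14.7 and 13 at 5 dpi, 13.5 and 14.1 at 7 dpi, and 13.4 and 13.3 at 14 dpi. On this ratio the wild-type 2 dpi libraries overlapped the untouched ones, whereas those of the later times were below them. In mutants the ratio was 14.2 and 14.3 untouched, 10.9 and 10.6 at 2 dpi, 15.4 and 15.5 at 5 dpi, 14.2 and 14.1 at 7 dpi, and 13.2 and 13.6 at 14 dpi, so the 2 dpi pair was the lowest on this scale too. In bulk samples, fewer cardiomyocytes and less of these transcripts per cardiomyocyte cannot be told apart.

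**Figure D1:**
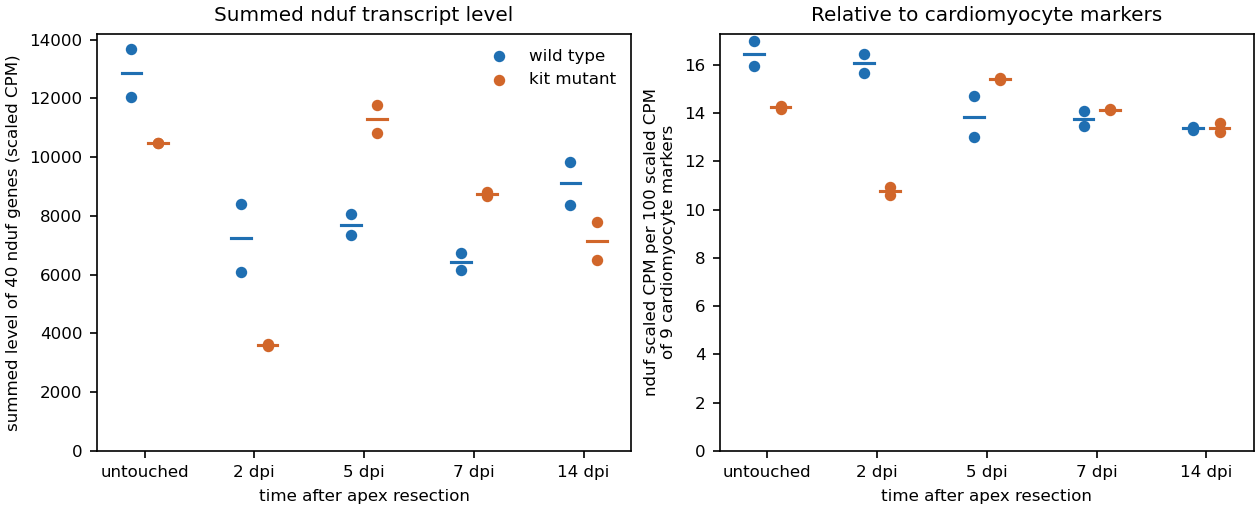
Summed level of the 40 nduf genes in scaled CPM (left) and per 100 scaled CPM of 9 cardiomyocyte markers (right), by time after apex resection. Points are the 2 libraries of a group and lines their mean, blue for wild type and orange for kit mutant; the mutant pair of 2 dpi, at 3623 and 3575 scaled CPM, is the lowest in both panels.

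The wild-type time course asks how levels at each time compare with the untouched heart. Nearly all nduf genes fell at 2, 5 and 7 dpi, and fewer were below the untouched level at 14 dpi. At 2 dpi, 37 of 40 were lower and 0 higher (limma, adjusted p under 0.05), where 25.2% of all 10914 genes tested were lower and 26.4% higher. The median log2 difference of the 40 genes was -0.75. At 5 dpi, 38 were lower and 0 higher, against 17% and 15.9% of all genes, with a median of -0.73. At 7 dpi, 37 were lower and 0 higher, against 17.3% and 17.5%, and the median was -1.0. At 14 dpi, 22 were lower and 0 higher, against 11.6% and 13.2%, and the median was -0.48. The median over all genes tested was between -0.03 and 0.00 in these comparisons. With the near-identical pairs averaged, which here acts only through the shared estimate of spread, the lower counts were 34, 35, 37 and 15. The count at 14 dpi rested on single libraries: leaving out wild-type untouched replicate 2 gave 6, and leaving out replicate 2 of 14 dpi gave 5. These 4 comparisons share the 2 untouched libraries.

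All 7 core subunits, which carry out the electron transfer, fell at 2, 5 and 7 dpi, with medians of -0.89, -0.79 and -1.10. Of these, ndufs1, an iron-sulfur subunit, had the highest level. It stood at 930 and 1128 scaled CPM in the untouched libraries, 424 and 576 at 2 dpi, 587 and 619 at 5 dpi, 435 and 516 at 7 dpi, and 724 and 630 at 14 dpi. No injured library reached an untouched one. Its log2 difference was -1.05 ± 0.14 at 2 dpi (adjusted p = 1.1e-05) and -1.11 ± 0.14 at 7 dpi (adjusted p = 1.3e-05). Here and below, ± after a log2 difference is its standard error from the limma fit. After a level in scaled CPM, ± is the SD of the 2 libraries of a group. At 14 dpi 6 of the 7 core subunits were called lower.

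All 8 accessory subunits of the peripheral arm fell at 2, 5 and 7 dpi too, with medians of -0.76, -0.74 and -1.0, and 6 of them were lower at 14 dpi. The lowest p of the group at 5 and 7 dpi belonged to ndufa7, a small subunit of this arm. It had 75.1 and 80.7 scaled CPM untouched, 35 and 47.5 at 2 dpi, 40.8 and 42.3 at 5 dpi, 31.8 and 35.2 at 7 dpi, and 55.5 and 50.1 at 14 dpi. Its groups after injury lay wholly below the untouched one. The log2 difference at 7 dpi was -1.20 ± 0.12 (adjusted p = 2.2e-06). For ndufs4, a small subunit that in mammals is needed for a stable peripheral arm, the level fell from 124 ± 9.27 to 50.3 ± 0.461 at 7 dpi (log2 -1.29 ± 0.14, adjusted p = 3.6e-06), the largest fall of the 40 genes at that time. The product of ndufa9a in mammals sits where the arms meet. The level of this gene at 2 dpi was 189 ± 49.8 scaled CPM against 320 ± 34.3 untouched (log2 -0.78 ± 0.16, adjusted p = 0.00096).

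Of the 17 accessory subunits of the membrane arm, 16 fell at 2 dpi, 17 at 5 dpi, 16 at 7 dpi and 8 at 14 dpi, with medians of -0.70, -0.69, -0.90 and -0.41. The one not called lower at 2 and 7 dpi was ndufb3. The member with the highest level was ndufb8, with 479 and 561 scaled CPM untouched, 268 and 346 at 2 dpi, 315 and 325 at 5 dpi, 245 and 269 at 7 dpi, and 407 and 338 at 14 dpi. Here as well no injured library reached an untouched one, and the log2 difference was -1.01 ± 0.13 at 7 dpi (adjusted p = 1.8e-05). At 14 dpi ndufb6 was lower (109 ± 11.9 against 171 ± 15.7 scaled CPM, log2 -0.64 ± 0.13, adjusted p = 0.0023).

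The genes ndufab1a and ndufab1b encode the acyl carrier protein, which is a complex I subunit and also serves mitochondrial fatty acid synthesis. Both fell at 5 and 7 dpi. For ndufab1a the level was 172 and 189 scaled CPM untouched, 92.0 and 123 at 2 dpi and 80.6 and 94.4 at 7 dpi (log2 -1.04 ± 0.15 at 7 dpi, adjusted p = 4.9e-05). For ndufab1b it was 99.7 and 121 untouched, 65.9 and 97.0 at 2 dpi and 52.2 and 61.9 at 7 dpi (log2 -0.94 ± 0.16, adjusted p = 0.00029). The 2 dpi fall of ndufab1b was called (log2 -0.45 ± 0.16, adjusted p = 0.028) but not without wild-type 2 dpi replicate 1 (adjusted p = 0.39). At 14 dpi ndufab1a was still called lower, though not without wild-type 14 dpi replicate 2 (adjusted p = 0.022 and 0.18).

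Of the 4 assembly factors 2 were called in wild type. The pair ndufaf1, which takes part in building the membrane arm, and ndufaf5, which in human hydroxylates a core subunit, fell at 2, 5 and 7 dpi, whereas ndufaf2 and ndufaf7 passed at no wild-type time. The medians of the 4 genes were -0.31, -0.38, -0.35 and -0.06 at the 4 times. Levels of ndufaf1 were 90.4 and 103 scaled CPM untouched, 64.3 and 86.4 at 2 dpi, 59.1 and 68.2 at 5 dpi, 68.6 and 72.9 at 7 dpi, and 106 and 90.6 at 14 dpi. The 14 dpi libraries overlapped the untouched ones. Its log2 difference was -0.59 ± 0.13 at 5 dpi (adjusted p = 0.0028). The call at 7 dpi (adjusted p = 0.015) was lost without wild-type untouched replicate 2 (adjusted p = 0.13), and that at 2 dpi (adjusted p = 0.028) without wild-type 2 dpi replicate 1 (adjusted p = 0.37). Those of ndufaf5 (adjusted p = 0.0045 to 0.020) were each lost without 1 library (adjusted p = 0.063 to 0.19), wild-type 2 dpi replicate 1 at 2 dpi and wild-type untouched replicate 2 at 5 and 7 dpi. For ndufaf2, which in mammals is an assembly chaperone related to NDUFA12, differences ran from -0.25 ± 0.15 (2 dpi) to 0.04 ± 0.15 (14 dpi), with adjusted p = 0.18 or higher.

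The ndufa4 family was named for complex I, but in mammals its product copurifies with complex IV, cytochrome c oxidase. Its 2 members parted at 14 dpi. For ndufa4 the level was 1560 and 1783 scaled CPM untouched, 538 and 766 at 2 dpi, 852 and 920 at 5 dpi, 778 and 696 at 7 dpi, and 724 and 665 at 14 dpi. It stayed below the untouched level throughout, with log2 differences of -1.38 ± 0.14 at 2 dpi (adjusted p = 7.2e-07) and -1.26 ± 0.14 at 14 dpi (adjusted p = 6.6e-06), the largest falls of the 40 genes at these times. For ndufa4l it was 1469 and 1645 untouched, 759 and 1073 at 2 dpi, 950 and 1037 at 5 dpi, 817 and 872 at 7 dpi, and 1469 and 1254 at 14 dpi. One 14 dpi library was level with the lower untouched one and the other was below it (log2 -0.20 ± 0.14, adjusted p = 0.35). Without this family, the other 38 genes had wild-type medians of -0.74, -0.73, -1.0 and -0.48 at 2, 5, 7 and 14 dpi. Their medians in mutants were -1.71, 0.15, -0.31 and -0.59.

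**Figure D2:**
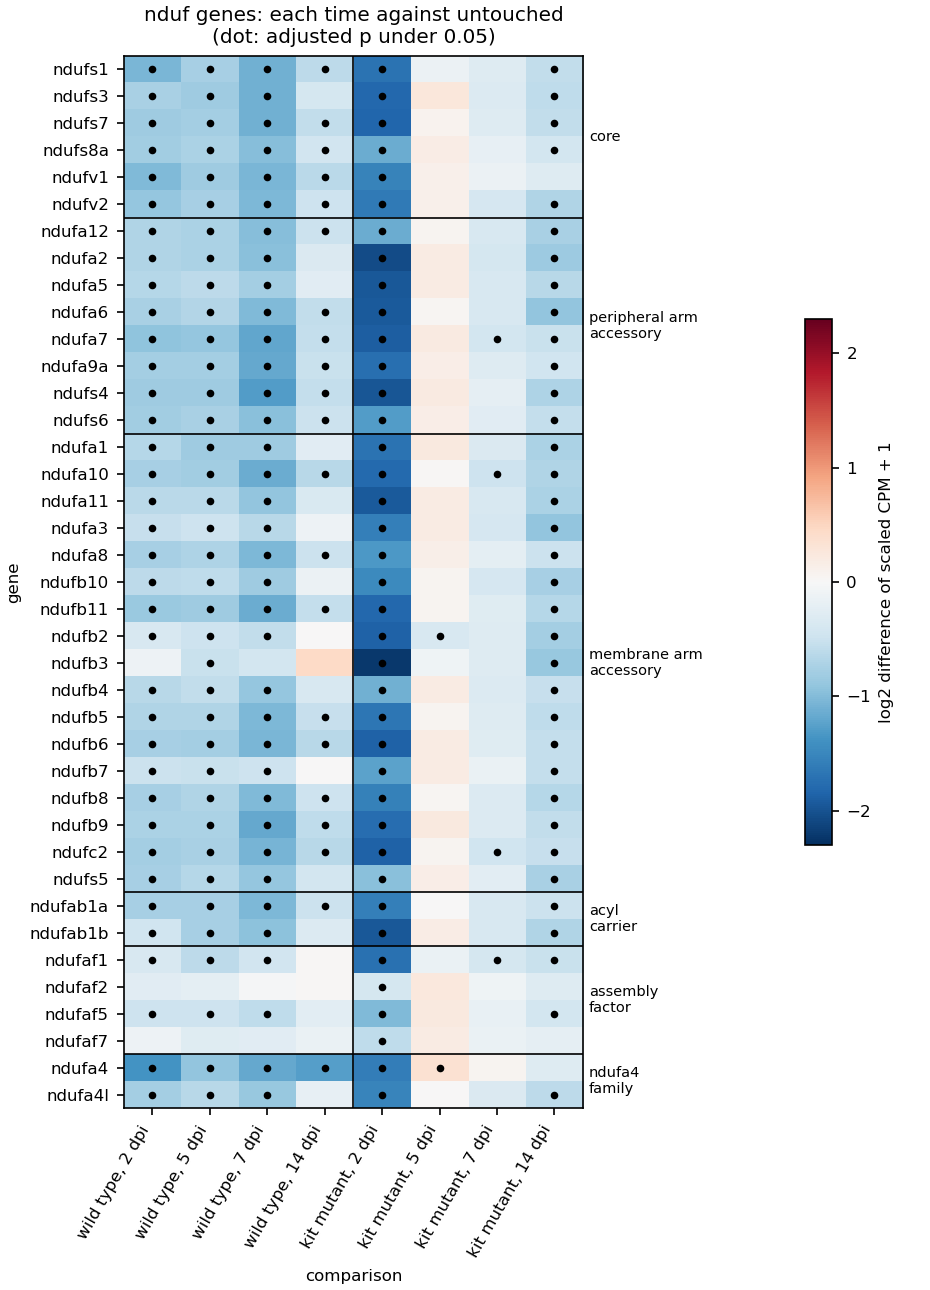
Log2 difference of 39 of the 40 nduf genes (rows, grouped by role) at each time against untouched, in wild type (left 4 columns) and kit mutant (right 4 columns). Blue is lower and red higher than untouched, and a dot marks an adjusted p under 0.05; of all 40 genes, 37, 38, 37 and 22 were lower in wild type and 40, 1, 4 and 36 in mutants.

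The last 2 wild-type times were also compared directly. Between 7 and 14 dpi 34 of 40 genes rose and 0 fell, where 8.96% of all genes tested were higher and 8.81% lower, and the median was 0.53. With the pairs averaged 11 were higher. The count rested on single libraries, and was 5 without wild-type 7 dpi replicate 1 and 2 without wild-type 14 dpi replicate 1. The clearest rise was that of ndufs4, from 50.3 ± 0.461 to 84.6 ± 8.26 scaled CPM (SD, n = 2; log2 0.74 ± 0.14, adjusted p = 0.0023), and ndufb3 rose from 56.2 ± 0.901 to 105 ± 17.9 (log2 0.88 ± 0.17, adjusted p = 0.0023, and 0.052 without wild-type 14 dpi replicate 1). All 17 membrane arm accessory subunits, 7 of 8 in the peripheral arm and 6 of 7 core subunits rose, as did 1 of the 4 assembly factors. In contrast ndufa4 had a log2 difference of -0.09 ± 0.14 (adjusted p = 0.70). Cardiomyocyte markers were higher at 14 dpi too, with 45640 and 47810 scaled CPM at 7 dpi and 73259 and 62978 at 14 dpi. Per 100 scaled CPM of these markers, nduf genes had 13.5 and 14.1 at 7 dpi and 13.4 and 13.3 at 14 dpi, so this ratio did not rise.

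In the kit mutant the fall at 2 dpi was larger and took in every member. All 40 genes were lower, where 24.9% of all genes tested were lower and 27.5% higher, and the median was -1.69. With the near-identical pairs averaged 38 were lower. All 40 had their lowest mutant mean at 2 dpi, whereas in wild type 33 had theirs at 7 dpi, 5 at 5 dpi and 2 at 2 dpi. At 5 dpi 1 gene was lower and 1 higher, against 25.3% and 26% of all genes, and the median was 0.15. The share of nduf genes called at 5 dpi was thus below that of all genes. At that time 36 of 40 had their highest mutant mean, whereas 36 of 40 were highest untouched in wild type. Such counts of lowest and highest times were not made over all genes tested, so they describe these 40 genes only. At 7 dpi 4 were lower and 0 higher, against 5.74% and 8.83%, with a median of -0.31. At 14 dpi 36 were lower and 0 higher, against 18.2% and 21.3%, with a median of -0.59, and 19 were lower with the pairs averaged.

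The small counts at 5 and 7 dpi depended on the pairs. With them averaged limma called 0 at 5 dpi and 0 at 7 dpi, and 0 genes had an unadjusted p under 0.05 at either time. With all libraries limma, edgeR and DESeq2 called 2, 2 and 2 at 5 dpi and 4, 3 and 5 at 7 dpi. At 5 dpi the count was 0 without either untouched mutant library or without mutant 5 dpi replicate 2, and 1 without any of the other mutant 2, 5 and 7 dpi libraries. At 7 dpi it was 0 without any 1 of the untouched or 7 dpi mutant libraries, 2 without any 1 of wild-type 5 dpi or mutant 2 dpi, and 9 or 10 without wild-type 2 dpi replicate 1 or 2. At 14 dpi it was 23 without mutant 14 dpi replicate 2.

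Core subunits had a median of -1.69 in mutants at 2 dpi, peripheral arm accessory subunits -1.91, membrane arm accessory subunits -1.70 and assembly factors -0.80. For ndufs1 the mutant libraries had 757 and 774 scaled CPM untouched, 241 and 232 at 2 dpi, 697 and 691 at 5 dpi, 637 and 612 at 7 dpi, and 551 and 483 at 14 dpi. Unlike the summed level, that of ndufs1 was below untouched at 5 dpi as well (log2 -0.14 ± 0.14, adjusted p = 0.41). At 2 dpi its difference was -1.69 ± 0.14 (adjusted p = 4.6e-08) and at 14 dpi -0.57 ± 0.14 (adjusted p = 0.0037, and 0.060 with the pairs averaged). For ndufa7 the 2 dpi libraries had 15.0 and 15.8 scaled CPM against 61.5 and 59.3 untouched (log2 -1.90 ± 0.12, adjusted p = 4.3e-09). The peripheral arm subunit ndufa5 fell from 145 ± 0.0389 to 36.9 ± 3.09 (log2 -1.95 ± 0.13, adjusted p = 7.3e-09), and the membrane arm subunit ndufb2 from 92.2 ± 2.51 to 24.7 ± 0.472 (log2 -1.86 ± 0.13, adjusted p = 1.1e-08). These 3 genes had the lowest p at that time. The untouched and 2 dpi mutant groups compared here were both near-identical pairs, so these p-values may not measure the spread between separate preparations.

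The acyl carrier genes fell to a like degree, ndufab1b from 86.9 ± 3.31 to 21.9 ± 1.07 scaled CPM (log2 -1.94 ± 0.16, adjusted p = 6.5e-08) and ndufab1a from 133 ± 7.4 to 44.0 ± 3.56 (log2 -1.57 ± 0.15, adjusted p = 2.3e-07). The assembly factor ndufaf1 fell from 111 ± 1.39 to 32.9 ± 1.03 (log2 -1.72 ± 0.13, adjusted p = 2.5e-08). The other 3 assembly factors also passed, with the smallest difference for ndufaf2 (log2 -0.40 ± 0.15, adjusted p = 0.038, and 0.25 with the pairs averaged). At 5 dpi ndufa4 was higher than untouched (1302 and 1291 against 1023 and 1010 scaled CPM, log2 0.35 ± 0.14, adjusted p = 0.040) and ndufb2 lower (77.6 and 65.3 against 90.4 and 93.9, log2 -0.37 ± 0.13, adjusted p = 0.027). Both groups of libraries were apart for these genes, but neither passed once the pairs were averaged (adjusted p = 0.19 and 0.15) or without 1 library, mutant untouched replicate 2 for ndufa4 and mutant 5 dpi replicate 2 for ndufb2 (adjusted p = 0.13 and 0.22). At 7 dpi the called genes were ndufa7, ndufa10, ndufc2 and ndufaf1, with log2 differences of -0.41 to -0.48, and at 14 dpi the lowest p belonged to ndufb2 (53.5 ± 4.6 scaled CPM, log2 -0.78 ± 0.13, adjusted p = 0.00025), ndufb10 (log2 -0.76 ± 0.13) and ndufa6 (log2 -0.90 ± 0.16). The 4 genes not called at 14 dpi were ndufa4, ndufaf2, ndufaf7 and ndufv1, the core subunit that binds NADH and flavin.

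From 7 to 14 dpi the mutant did not rise as wild type did. In it 0 of 40 genes rose and 7 fell, where 12.4% of all genes were higher and 10.9% lower, and the median was -0.28. With the pairs averaged limma called 0 (6 at an unadjusted p under 0.05), and with all libraries edgeR called 7 and DESeq2 10. The count was 0 without mutant 7 dpi replicate 1, mutant 7 dpi replicate 2 or mutant 14 dpi replicate 2, 11 without mutant 14 dpi replicate 1, and 14 without either wild-type 2 dpi library. The genes with the lowest p were ndufs4 (78.6 ± 1.36 to 55.3 ± 7.14 scaled CPM, log2 -0.50 ± 0.14, adjusted p = 0.016), ndufb2 (log2 -0.47 ± 0.13, adjusted p = 0.016) and ndufb3 (log2 -0.58 ± 0.17, adjusted p = 0.020). None of the 3 passed on averaged pairs (adjusted p = 0.16, 0.16 and 0.17). The difference between the genotypes in this last step was not tested as such.

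The design text names the comparison of control and mutant cardiomyocytes. Mutant levels of nduf genes were lower than wild type at 2 dpi, higher at 5 dpi, and lower again at 14 dpi, with smaller differences in untouched hearts and at 7 dpi. Untouched, 15 of 40 were lower and 0 higher in mutants, against 21.2% lower and 18.9% higher of all genes tested, and the median was -0.29. Only 1 was lower with the pairs averaged, 1 without wild-type untouched replicate 2, and 4 without either untouched mutant library. At 2 dpi 38 were lower and 0 higher, against 30.3% and 27.3%, with a median of -1.16 and 35 lower with the pairs averaged. At 5 dpi 33 were higher and 0 lower, against 19.1% and 19.5%, with a median of 0.56. The 5 dpi count was 27 with the pairs averaged, 16 without wild-type 5 dpi replicate 1 and 18 without mutant 5 dpi replicate 1.

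At 7 dpi 18 were higher and 0 lower, against 13.1% and 14% of all genes, with a median of 0.35. Averaging the pairs left limma with 0 calls at 7 dpi (15 at an unadjusted p under 0.05), where edgeR and DESeq2 each called 20 with all libraries. The 7 dpi count was 4 without wild-type 7 dpi replicate 1, 9 without mutant 7 dpi replicate 1 and 4 without mutant 7 dpi replicate 2. At 14 dpi 24 were lower and 0 higher, against 14.8% and 16.2%, with a median of -0.43. It was 13 with the pairs averaged, 7 without wild-type 14 dpi replicate 1 and 10 without mutant 14 dpi replicate 2.

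In untouched hearts the gene with the lowest p was ndufa4, at 1023 and 1010 scaled CPM in mutants against 1560 and 1783 in wild type (log2 -0.71 ± 0.14, adjusted p = 0.00056). It was the 1 gene still called with the pairs averaged (adjusted p = 0.022). Marker sums of other cell types differed in the same comparison. In mutants against wild type, neutrophil markers summed to 720 and 721 against 20.8 and 19.5 scaled CPM, and macrophage markers to 497 and 476 against 307 and 299. Erythrocyte markers summed to 2198 and 2248 against 7077 and 7360, and epicardial and fibroblast markers to 996 and 1038 against 2000 and 2214. Endothelial markers stood at 3922 and 3994 against 4314 and 4505, and in none of these 5 lists did the genotypes overlap. Next were the membrane arm subunits ndufb11 (123 ± 3.18 against 186 ± 16.8, log2 -0.59 ± 0.15, adjusted p = 0.0057) and ndufa8 (233 ± 2.03 against 336 ± 24, log2 -0.52 ± 0.14, adjusted p = 0.0079). Neither passed with the pairs averaged (adjusted p = 0.070 and 0.085), nor without wild-type untouched replicate 2 (adjusted p = 0.057 and 0.066).

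At 2 dpi the largest difference was that of ndufb3, with 14.6 and 15.5 scaled CPM in mutants against 56.1 and 88.0 in wild type (log2 -2.15 ± 0.17, adjusted p = 5.9e-08). For ndufb2 the values were 25.1 and 24.4 against 77.9 and 97.3 (log2 -1.77 ± 0.13, adjusted p = 3.7e-08). In both the mutant pair was far below either wild-type library. That pair was near-identical, so these p-values may not measure the spread between separate preparations. The 2 genes not called were ndufaf2 and ndufs5. At 5 dpi ndufa1, a membrane arm subunit that in mammals is essential for assembly, was at 250 and 221 in mutants against 106 and 119 in wild type (log2 1.06 ± 0.14, adjusted p = 3.8e-05). In the same comparison ndufb10 was at 300 ± 32.1 against 165 ± 6.97 (log2 0.85 ± 0.13, adjusted p = 0.00013), while ndufb2 alone of the 40 had a negative difference (log2 -0.18 ± 0.13, adjusted p = 0.29). At 7 dpi the lowest p belonged to ndufb10 (218 ± 0.382 against 141 ± 5.12, log2 0.62 ± 0.13, adjusted p = 0.0023), ndufs4 (log2 0.63 ± 0.14, adjusted p = 0.0033) and ndufa12 (log2 0.66 ± 0.15, adjusted p = 0.0048, and 0.053 without wild-type 7 dpi replicate 1), none of them called with the pairs averaged (adjusted p = 0.059, 0.068 and 0.081). At 14 dpi ndufb3 was lower again, at 42.3 and 37.5 against 118 and 92.3 (log2 -1.36 ± 0.17, adjusted p = 2.5e-05), as were ndufb2 (log2 -1.07 ± 0.13, adjusted p = 2.5e-05) and ndufa2 (log2 -0.95 ± 0.17, adjusted p = 0.00055).

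**Figure D3:**
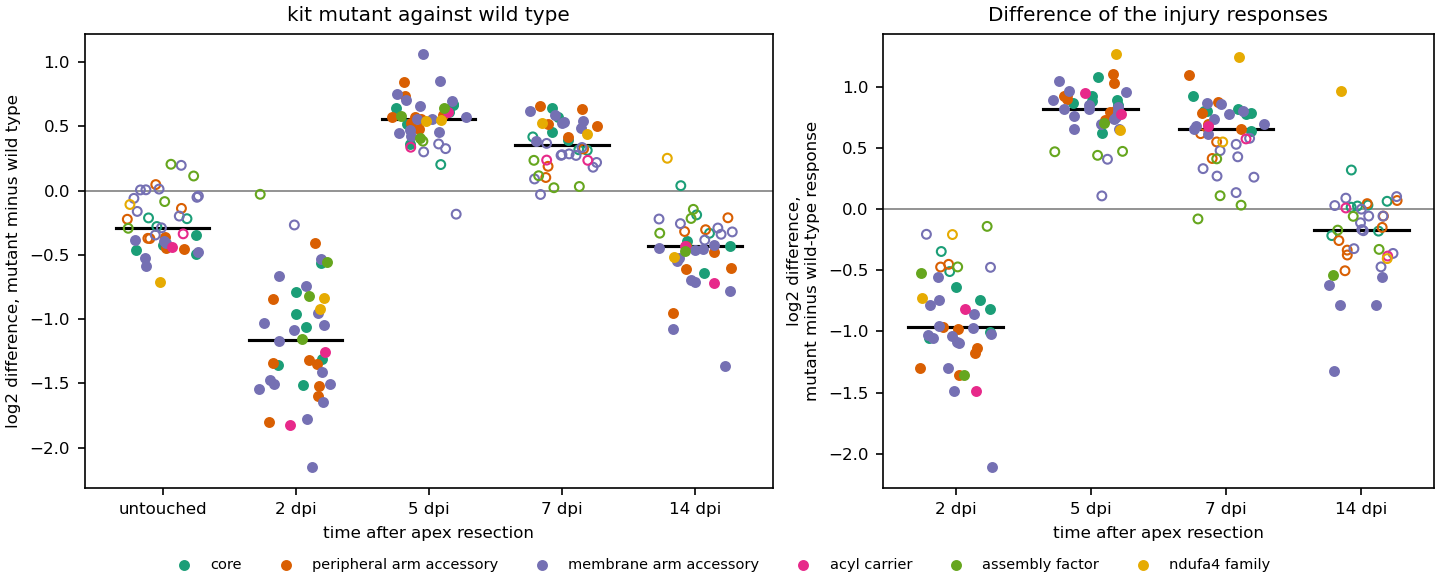
Log2 difference of each of the 40 nduf genes between mutant and wild type at each time (left) and difference between the mutant and the wild-type response to injury (right). Each point is a gene coloured by role, filled where the adjusted p was under 0.05, and black lines are medians: -0.29, -1.16, 0.56, 0.35 and -0.43 on the left, and -0.96, 0.81, 0.65 and -0.17 on the right.

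The injury responses themselves, each time minus untouched, were compared between genotypes as a difference of differences. Each such difference includes the gap between the untouched groups, where the median of the 40 genes was -0.29 in mutants against wild type. At 2 dpi the mutant response was more negative for 31 of 40 genes and more positive for 0, against 20.3% and 20.6% of all genes tested, with a median of -0.96 and 21 more negative with the pairs averaged. At 5 dpi it was more positive for 35 and more negative for 0, against 17.8% and 17.2%, with a median of 0.81 and 20 more positive with the pairs averaged. The sign of the difference thus turned between these times. At 7 dpi it was more positive for 23 and more negative for 0, against 9.19% and 9.57%, with a median of 0.65. The 7 dpi count was 2 with the pairs averaged and 12 to 14 without any 1 of wild-type untouched replicate 2, wild-type 7 dpi replicate 1 and the untouched and 7 dpi mutant libraries. At 14 dpi it was more positive for 1 and more negative for 6, against 17.5% and 15.7%, with a median of -0.17, or 0.02 on CPM as deposited, where the median of all genes was 0.22. It was 3 genes in all with the pairs averaged, and also 3 without any 1 of wild-type untouched replicate 1, wild-type 14 dpi replicate 1 and mutant 14 dpi replicate 2.

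The largest difference of responses at 2 dpi was that of ndufb3 (log2 -2.11 ± 0.24, adjusted p = 8.4e-06), followed in p by ndufb2 (-1.48 ± 0.19, adjusted p = 2e-05) and ndufaf1 (-1.36 ± 0.19, adjusted p = 4.3e-05). The untouched mutants, a near-identical pair, enter every difference of responses. Its p-values may therefore not measure the spread between separate preparations. For ndufa4 the responses differed by -0.21 ± 0.19 at 2 dpi (adjusted p = 0.41), a difference that did not pass. At 5 dpi ndufa4 had the largest difference (1.26 ± 0.19, adjusted p = 0.00019), before ndufa7 (1.1 ± 0.17, adjusted p = 0.00026) and ndufa1 (1.05 ± 0.20, adjusted p = 0.00092). At 7 dpi ndufa4 led again (1.24 ± 0.19, adjusted p = 0.00036), with ndufs4 next (1.09 ± 0.20, adjusted p = 0.0012), and both were called with the pairs averaged too (adjusted p = 0.029 and 0.049). At 14 dpi ndufa4 was the 1 gene called with a more positive mutant response (0.97 ± 0.19, adjusted p = 0.0011). Its untouched means already differed, at 1017 scaled CPM in mutants against 1671 in wild type, and each of its differences of responses includes this gap. Means of ndufa4 in mutants against wild type were 1061 against 737 at 7 dpi and 828 against 694 at 14 dpi. More negative mutant responses at 14 dpi were those of ndufb3 (-1.32 ± 0.24, adjusted p = 0.00044), ndufb2 (-0.79 ± 0.19, adjusted p = 0.0038) and ndufa3 (-0.78 ± 0.23, adjusted p = 0.013). The call of ndufa3 was lost without wild-type 14 dpi replicate 1 and with the pairs averaged (adjusted p = 0.075 in each).

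Members moved closely together, with a few exceptions. Over the 20 libraries, log2 levels of a gene and the median of the other members had a Pearson r between 0.627 and 0.993, with a median of 0.978, and 35 of 40 genes were at 0.9 or more. No such r was taken for genes outside the 40, so it is not shown that members moved more closely together than other genes. These values share libraries and scaling and describe these samples only. The lowest were ndufaf2 (0.627), ndufs5 (0.863), ndufb2 (0.865), ndufa12 (0.866) and ndufb3 (0.879), and the highest ndufs7 (0.993), the core subunit with the last iron-sulfur cluster before ubiquinone. Without the mutant 2 dpi pair (18 libraries), r fell to 0.587 for ndufb2 and 0.633 for ndufb3, but was 0.950 for ndufs5 and 0.933 for ndufa12. It was then also below 0.9 for ndufaf2 (0.610), ndufa4 (0.778), ndufaf1 (0.810), ndufaf7 (0.822), ndufb7 (0.871) and ndufv1 (0.877).

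The membrane arm subunits ndufb2 and ndufb3 thus departed in other libraries than ndufs5 did. In wild type ndufb3 had 68.4 and 84.5 scaled CPM untouched, 56.1 and 88.0 at 2 dpi, 55.0 and 51.1 at 5 dpi, 56.8 and 55.5 at 7 dpi, and 118 and 92.3 at 14 dpi. Its 2 dpi libraries spanned the untouched ones (log2 -0.11 ± 0.17, adjusted p = 0.60), and both 14 dpi libraries were above them (log2 0.45 ± 0.17, adjusted p = 0.059). In mutants it had 74.3 and 73.3 untouched, 14.6 and 15.5 at 2 dpi, 73.8 and 63.6 at 5 dpi, 57.2 and 62.7 at 7 dpi, and 42.3 and 37.5 at 14 dpi. That made the largest fall of any member at 2 dpi (log2 -2.22 ± 0.17, adjusted p = 2.1e-08). In wild type at 14 dpi ndufb2 was at 121 and 107 against 98.0 and 130 untouched, which overlapped (log2 0.01 ± 0.13, adjusted p = 0.97).

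The behaviour of ndufs5, a membrane arm subunit on the side of the intermembrane space, was singled out after its values were seen. In mutants it had 316 and 328 scaled CPM untouched and 166 and 163 at 2 dpi, against 318 and 355 and then 171 and 228 in wild type. Its mutant fall at 2 dpi (log2 -0.97 ± 0.15, adjusted p = 3.9e-05) was the smallest among the 17 membrane arm accessory subunits. Its responses in the genotypes differed by -0.21 ± 0.21 (adjusted p = 0.45). At 5 dpi it was higher in mutants than in wild type (log2 0.75 ± 0.15, adjusted p = 0.00094), as most members were.

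**Figure D4:**
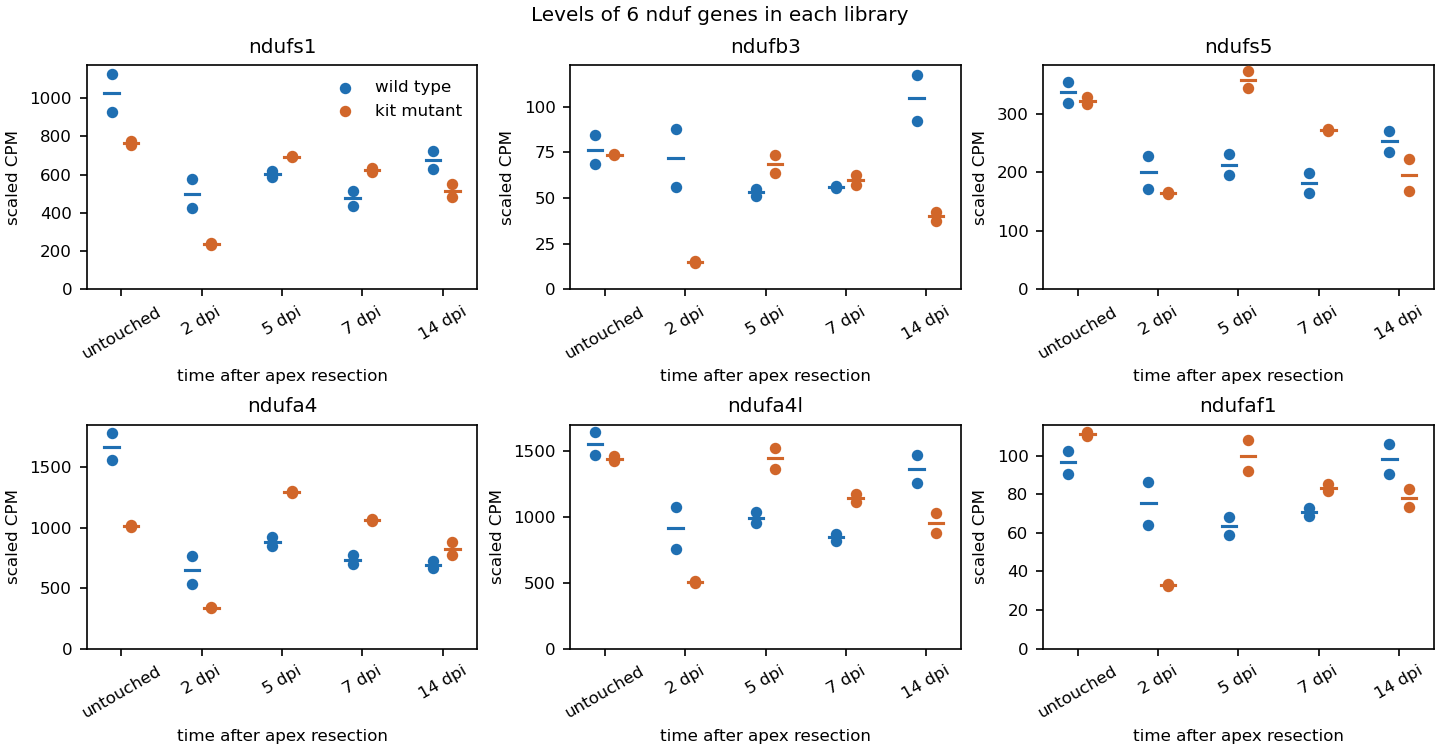
Scaled CPM of 6 nduf genes in each library by time after apex resection, blue for wild type and orange for kit mutant, with points for the 2 libraries of a group and lines for their mean. In wild type ndufs1 and ndufa4 are below untouched at all later times, ndufa4l is back to 1469 and 1254 at 14 dpi while ndufa4 is at 724 and 665, and ndufb3 drops to 14.6 and 15.5 in mutants at 2 dpi.

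The other complexes of the respiratory chain took a similar course. In wild type at 2, 5, 7 and 14 dpi, the 9 complex III genes had 9, 9, 9 and 7 lower and medians of -0.79, -0.83, -1.16 and -0.48. Complex III passes electrons from ubiquinol to cytochrome c. The 17 complex IV genes had 14, 15, 15 and 8 lower and 1, 1, 1 and 0 higher, with medians of -0.76, -0.70, -1.0 and -0.42. The 16 ATP synthase genes had 16, 16, 16 and 6 lower, with medians of -0.71, -0.73, -0.98 and -0.35. Of all genes tested, 25.2%, 17%, 17.3% and 11.6% were lower and 26.4%, 15.9%, 17.5% and 13.2% higher at these wild-type times. In mutants at 2 dpi the medians of the 3 lists were -1.72, -1.58 and -1.47, and at 5 dpi 0.00, 0.10 and 0.12, so the medians of the nduf genes (-1.69 and 0.15) were close to theirs at both times. No difference between the lists was tested.

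Among the complex IV genes the exceptions were cox6a1 and cox4i2. At 2 dpi cox6a1 was higher than untouched in wild type, with 147 scaled CPM against 77.0 (log2 0.93 ± 0.18, adjusted p = 0.00037) and in mutants (127 against 79.3, log2 0.67 ± 0.18, adjusted p = 0.0043). The other, cox4i2, is a paralog of cox4i1 that in mammals responds to oxygen. In mutants cox4i2 rose from 9.21 to 42.3 scaled CPM at 5 dpi (means of 2 libraries, log2 2.08 ± 0.13, adjusted p = 4.4e-09). By contrast cox5ab fell in mutants at 2 dpi from 180 to 33.1 scaled CPM (log2 -2.41 ± 0.13), and cox8b from 738 to 130 (log2 -2.50 ± 0.14).

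Other enzymes feed electrons into the same ubiquinone pool, among them succinate dehydrogenase and the electron transfer flavoprotein of fatty acid oxidation. Of 11 such genes 7 were lower and 1 higher in wild type at 2 dpi, and 8 lower and 0 higher in mutants, with medians of -0.67 and -1.28. Of all genes tested 25.2% were lower and 26.4% higher in wild type, and 24.9% and 27.5% in mutants. The flavoprotein gene etfa fell in wild type from 316 to 157 scaled CPM at 2 dpi (log2 -1.01 ± 0.11, adjusted p = 2.1e-06), and etfdh, which passes its electrons to ubiquinone, fell in mutants from 168 to 51.3 (log2 -1.69 ± 0.12). The gene that was higher in wild type was sdhda, at 4.96 against 1.52 scaled CPM (log2 1.26 ± 0.21, adjusted p = 0.00013), a paralog at a low level.

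Assembly factors of complex I whose names do not begin with nduf spread widely. Of 10 such genes 3, 6, 6 and 3 were lower in wild type and 0 higher at the 4 times, with medians of -0.20, -0.53, -0.52 and -0.24. Of all genes 25.2%, 17%, 17.3% and 11.6% were lower, so the 2 dpi count was near the share of all genes. In mutants 8 were lower at 2 dpi, against 24.9% of all genes, with a median of -0.82. No difference from the subunits was tested. The most clearly lower ones in wild type at 2 dpi were aifm1, which supports import of respiratory subunits (243 against 473 scaled CPM, log2 -0.96 ± 0.14, adjusted p = 3.8e-05), and acad9, an acyl-CoA dehydrogenase relative that acts in assembly (log2 -0.89 ± 0.15, adjusted p = 0.00012). In mutants at 5 dpi nubpl, an iron-sulfur protein for complex I assembly, was higher (11.8 against 7.46, log2 0.60 ± 0.17, adjusted p = 0.0076).

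Of 11 regulators of respiratory genes tested, 5 fell and 0 rose in wild type at 2 dpi, with a median of -0.17, and 6 fell in mutants, with a median of -0.43. Shares over all genes tested were 25.2% lower and 26.4% higher in wild type, and 24.9% and 27.5% in mutants. The nuclear receptor esrra, which in mammals drives many genes of oxidative metabolism, fell in wild type from 35.1 to 14.6 scaled CPM (log2 -1.21 ± 0.12, adjusted p = 8.3e-07), and its relative esrrga from 19.9 to 7.75 (log2 -1.25 ± 0.14, adjusted p = 2.1e-06). In mutants at 2 dpi esrra fell from 23.1 to 16.6 (log2 -0.45 ± 0.12) and esrrga from 8.62 to 5.82 (log2 -0.50 ± 0.14). At 14 dpi in mutants both were higher than untouched (log2 0.71 ± 0.12 and 0.79 ± 0.14). Whether such regulators had a part in the nduf levels was not tested. The gene of the mitochondrial DNA-binding factor tfam fell in wild type at 7 dpi (log2 -0.67 ± 0.12, adjusted p = 0.00042) and had a difference of 0.11 ± 0.12 in mutants at 2 dpi (adjusted p = 0.50). These are values of unlike times and do not compare the genotypes. That of tfb2m, a mitochondrial transcription factor, fell in mutants at 2 dpi from 55.5 to 18.5 scaled CPM (log2 -1.54 ± 0.17, adjusted p = 1.8e-06).

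**Figure D5:**
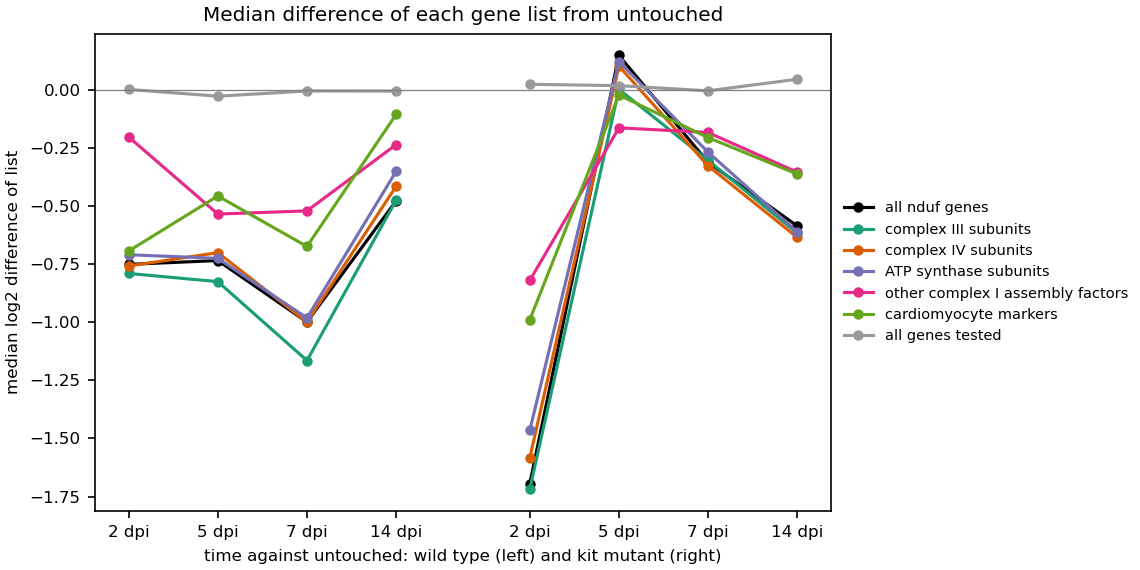
Median log2 difference from untouched of the nduf genes, of other gene lists of the respiratory chain, of 9 cardiomyocyte markers and of all genes tested, at each time in wild type (left) and kit mutant (right). The lines of complexes III and IV and of ATP synthase run close to that of the nduf genes (-1.69 in mutants at 2 dpi), the cardiomyocyte markers (-0.99) and the other assembly factors (-0.82) lie above them there, and all genes tested are near 0.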

How the data were processed

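The 20 libraries were made from messenger RNA of cardiomyocytes in bulk. Per the submitters' processing notes, the authors used FastQC and featureCounts on danRer10; for the aligner, annotation and strand setting, nothing is given in the sources used here. Values in the deposited table were CPM by gene symbol, and 3 lines without a gene name were left out. Reads were recovered from the CPM steps (100% of values whole within 0.1 read). Positions are not given, since no annotation of that build was used. A field of the 14 dpi labels gave another day, and 14 was used as in the titles.

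Each library's CPM were scaled by its median-ratio factor (0.881 to 1.18). The filter of 1 CPM in at least 2 libraries kept 10914 genes for testing. In R 4.3.3, limma 3.58.1 with a trended prior modelled log2(scaled CPM + 1) with 10 group means (10 residual degrees of freedom) and gave 19 two-sided contrasts, with Benjamini-Hochberg adjustment over all genes tested and a threshold of 0.05. Log2 differences understate changes of low genes. Permuting 2 against 2 libraries cannot reach the threshold. edgeR 4.0.16 and DESeq2 1.42.0 on recovered reads, other scalings, filters and pseudocounts, a replicate block, each genotype alone, averaged near-identical pairs (mean chi-square per gene under 10) and leaving out each library were tried. The fits were tested on simulated data. Figures used matplotlib 3.10.9. The members, roles and lists were chosen with earlier results of these data known. Named genes were, per comparison, up to 3 nduf genes with the lowest adjusted p in each direction. Also named were those called against the direction of most, the highest gene of each role, paralog pairs and the ndufa4 family. For other lists up to 2 members were named by adjusted p. The genes ndufs5, ndufaf2, ndufaf5, ndufaf7, ndufb7, ndufv1, ndufs7, cox6a1, sdhda and tfam were named after their values were seen. The values of 1 member are not reported here singly.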

Additional observations from a re-analysis of the deposited data

Results flagged for a closer look

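The injury response of the nduf genes differed between the genotypes by a test of the difference itself. The number of genes called was 31 of 40 at 2 dpi (all more negative in mutants, against 20.3% of all genes), 35 at 5 dpi (all more positive, against 17.8%) and 23 at 7 dpi (all more positive, against 9.19%). At 14 dpi it was 7 (6 more negative, against 15.7% of all genes, and ndufa4 more positive, against 17.5%), a share no higher than that of all genes. With the near-identical mutant pairs averaged these counts were 21, 20, 2 and 3. Each difference includes the untouched gap, where the median of the 40 genes was -0.29 in mutants against wild type. There 15 were lower and 0 higher, against 21.2% and 18.9% of all genes, and 1 was lower with the pairs averaged. Compared directly, mutants against wild type had medians of -1.16, 0.56, 0.35 and -0.43 at 2, 5, 7 and 14 dpi. Medians of the differences of responses were -0.96, 0.81, 0.65 and -0.17. The mutant 2 dpi pair came from lane 7, and the untouched groups, which enter all 4 differences, had unlike marker sums of other cell types. In untouched mutants against untouched wild type these were 720 and 721 against 20.8 and 19.5 scaled CPM for neutrophils, 497 and 476 against 307 and 299 for macrophages, 2198 and 2248 against 7077 and 7360 for erythrocytes, and 996 and 1038 against 2000 and 2214 for epicardium and fibroblasts. In mutants the erythrocyte sum was 2143 and 2087 at 2 dpi and 7420 and 7053 at 5 dpi. In wild type at 2 dpi the erythrocyte sum was 6189 and 1321, so the libraries of that pair were unlike each other. Lane cannot be told apart from the mutant 2 dpi group, nor, if runs were split by genotype, sequencing run from genotype at any time. The part of these cell types in the counts was not tested.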

How the results depend on the processing

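No direction of a called result turned under the settings tried, and medians of the 40 genes kept their sign except for the difference of responses at 14 dpi (0.02 on CPM as deposited). Their sizes moved: over all comparisons and settings, 24 medians lay more than 0.145 from the main fit and 537 did not. In wild type at 2 dpi the median of -0.75 was -0.45 on CPM as deposited and -0.52 with quantile normalization. For mutant against wild type these settings took it from 0.56 to 0.36 and 0.42 at 5 dpi, and from -1.16 to -1.12 and -1.37 at 2 dpi. Some counts of 0 did not hold. In wild type at 14 dpi 1 gene was higher than untouched on CPM as deposited and with DESeq2. For mutant against wild type 1 was lower at 5 dpi on CPM as deposited. At 14 dpi 1 was higher on that setting and 2 with quantile normalization. From 7 to 14 dpi in wild type 1 fell on each of these 2 settings. CPM as deposited moved the median of all genes by up to 0.32 (mutants, 2 dpi against untouched). With near-identical pairs averaged, counts moved by over 1.5 times for mutants at 5 dpi (0), 7 dpi (0) and 14 dpi (19) against untouched and at 14 against 7 dpi (0), for wild type at 14 against 7 dpi (11), for mutant against wild type untouched (1), at 7 dpi (0) and 14 dpi (13), and for the difference of responses at 5 dpi (20), 7 dpi (2) and 14 dpi (3). In a fit of each genotype alone, which has fewer samples, counts were 12 for wild type at 14 dpi, 8 for wild type at 14 against 7 dpi, 20 for mutants at 7 dpi and 19 for mutants at 14 against 7 dpi. For mutants at 7 dpi the count of 4 was 0 on CPM as deposited, and 1 with quantile normalization or without the filter. For mutants at 5 dpi it was 6 with quantile normalization (5 higher and 1 lower) and 1 without the filter (lower). In a fit of that genotype alone it was 3 (2 higher and 1 lower). For mutants at 14 against 7 dpi the count was 15 with quantile normalization. The cause of these moves was not tested. A replicate block gave 2 for mutants at 7 dpi and moved no other count by over 1.5 times; libraries of the same number did not deviate together (correlation above 0.1 in 3 of 45 pairs, median -0.01), so the numbers were not taken as pairing them.

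Leaving out 1 library gave, in wild type against untouched, 30 to 38 called genes at 2 dpi, 30 to 38 at 5 dpi, 32 to 38 at 7 dpi and 5 to 26 at 14 dpi. In mutants it gave 38 to 40, 0 to 2, 0 to 10 and 23 to 37. For mutant against wild type it gave 1 to 18 untouched, then 35 to 39, 16 to 37, 4 to 21 and 7 to 30. For the difference of responses it gave 27 to 38, 26 to 36, 12 to 29 and 3 to 10, and for 14 against 7 dpi 2 to 36 in wild type and 0 to 14 in mutants. Each nduf gene had 122 reads or more in each library, and each group had 2 libraries.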
